A study of Rattus norvegicus with 12 samples.

Results

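The vascular endothelial growth factor (VEGF) family was examined in the rat left ventricle through 8 genes, namely the ligands Vegfa, Vegfb and Vegfc, the receptors Flt1, Kdr and Flt4 and the co-receptors Nrp1 and Nrp2. The members were every probe set whose only annotated symbol was one of these 8, which gave 14 of 31042 probe sets, or 8 of 14217 named genes. Each probe set combines several short oligonucleotides against a transcript. The family was chosen in part by the measured EX minus SED differences of Vegfc and Nrp2, which were higher with exercise, so the members' values in voluntary exercise against sedentary rats are a description, with no test.

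Left ventricles of 16-month-old female Sprague-Dawley rats (Charles River) were measured on Affymetrix GeneChip arrays, 4 for each group, 12 in all. EX rats had lifelong access to voluntary exercise, PA rats were given a large box for 1 h of activity, 2 times weekly, and SED rats lived in a standard cage alone. The 3 groups shared strain, sex, age and tissue, and no drug or altered allele is named for any of them. The design text gives 12 animals for a group and 4 animals pooled on an array, which would fill 3 arrays where 4 are listed. Which animals lie on which array is not given, so arrays of a group may share animals and n = 4 may not be 4 independent samples. The p-values measure only the spread between these arrays.

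VEGF ligands are secreted proteins that bind receptor tyrosine kinases on endothelial cells. Vegfa acts on Flt1 (VEGFR-1) and Kdr (VEGFR-2) and is the main signal for the growth of blood capillaries, Vegfb binds Flt1, and Vegfc binds Flt4 (VEGFR-3) and, once cleaved, Kdr, and drives the growth of lymphatic vessels. Neuropilins have no kinase activity and present ligands to these receptors: Nrp1 binds Vegfa and the semaphorin Sema3a, and Nrp2 binds Vegfc and Sema3f. In the heart, cardiomyocytes release Vegfa and the dense capillary network carries the receptors.

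The array labelled SED 1 stood apart from the rest. Its mean correlation with the other arrays was 0.964, against 0.987 to 0.989 for the others, its interquartile range was 3.58 against 3.73 to 4.04, and its Gapdh controls gave 1.56 more signal on the log2 scale at the 3' end than at the 5' end, against 0.96 to 1.35. PA minus SED differences are also given without SED 1 where that turned their sign or moved them by over 1.5 times, values added after the data had been seen. Of the 12 listed cardiomyocyte markers 11 were measured above the filter, with a mean log2 value of 12.83 to 12.91 on every array, and of 16 endothelial markers 13 were, at 8.96 to 9.17. In tissue of mixed cells, fewer cells of a type and less RNA per cell cannot be told apart.

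Vegfc, the lymphatic growth factor, had the widest differences from SED among the 3 ligands, and they did not pass the test in PA. Its log2 values were 7.84, 7.46, 8.09 and 7.90 in EX, 7.67, 7.52, 7.86 and 7.45 in PA, and 7.15, 7.33, 6.92 and 7.40 in SED. Every EX and every PA array lay above every SED array, with the lowest PA array at 7.45 next to the highest SED array at 7.40, while EX and PA overlapped. The means were 7.82 ± 0.26 in EX, 7.63 ± 0.18 in PA and 7.20 ± 0.21 in SED (SD, n = 4 each).

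The EX mean of Vegfc was above the SED mean by 0.62 ± 0.15 (SE), or 1.54-fold. PA was above SED by 0.43 ± 0.15 (SE), or 1.34-fold, with a 95% interval of 0.09 to 0.76. The limma adjusted p of that difference was 0.254, so it did not pass the threshold of 0.05. Both differences use the same SED arrays, so the PA difference and its interval are not independent of the choice of Vegfc. EX and PA differed by 0.20 (95% interval -0.14 to 0.53, limma adjusted p = 1). Without SED 1 the differences from SED were 0.61 for EX and 0.41 for PA. Without SED 1 and SED 3 together they were 0.46 and 0.26.

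Nrp2, the co-receptor for Vegfc, was read by a pair of probe sets whose differences from SED had opposite signs, in EX and in PA. The brighter one had log2 values of 8.36, 8.24, 8.59 and 8.61 in EX, 8.05, 8.14, 8.21 and 8.41 in PA, and 7.78, 8.29, 7.95 and 7.65 in SED. The means descended from EX (8.45 ± 0.18) through PA (8.20 ± 0.15) to SED (7.92 ± 0.28, SD, n = 4 each), and the groups overlapped, since SED 2 at 8.29 lay above the lowest EX array. EX was above SED by 0.53 ± 0.15 (SE), or 1.45-fold. PA was above SED by 0.29 ± 0.15 (SE), with a 95% interval of -0.03 to 0.60 and an limma adjusted p of 0.371. EX was above PA by 0.25 (95% interval -0.07 to 0.57, limma adjusted p = 1).

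The dimmer Nrp2 probe set read 4.33, 4.30, 4.15 and 4.17 in EX, 4.29, 4.34, 4.37 and 4.34 in PA, and 4.96, 4.28, 4.56 and 4.69 in SED. Here 3 of the 4 SED arrays were the highest, and SED 2 fell among the EX and PA arrays. Its EX minus SED difference was -0.39 ± 0.12 (SE). With a mean of 4.40 it fell under the filter of 4.94, above which probe sets were tested. Over the 12416 probe sets under the filter the median EX minus SED difference was -0.135, and 75.3% were lower in EX. The tested probe sets had a median of 0.055. Whether the dimmer Nrp2 probe set follows this tendency of dim probe sets was not tested. After quantile normalization the EX minus SED difference was -0.29 for the dimmer probe set and 0.43 for the brighter one. Without SED 1 these were -0.27 and 0.49. With an offset of 32 on the linear scale, which damps dim values, the dimmer one differed by -0.16 and the brighter one by 0.48. The annotation names a source transcript for the dimmer probe set and none for the brighter one, whose place in the gene was not analysed here.

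**Figure D1:**
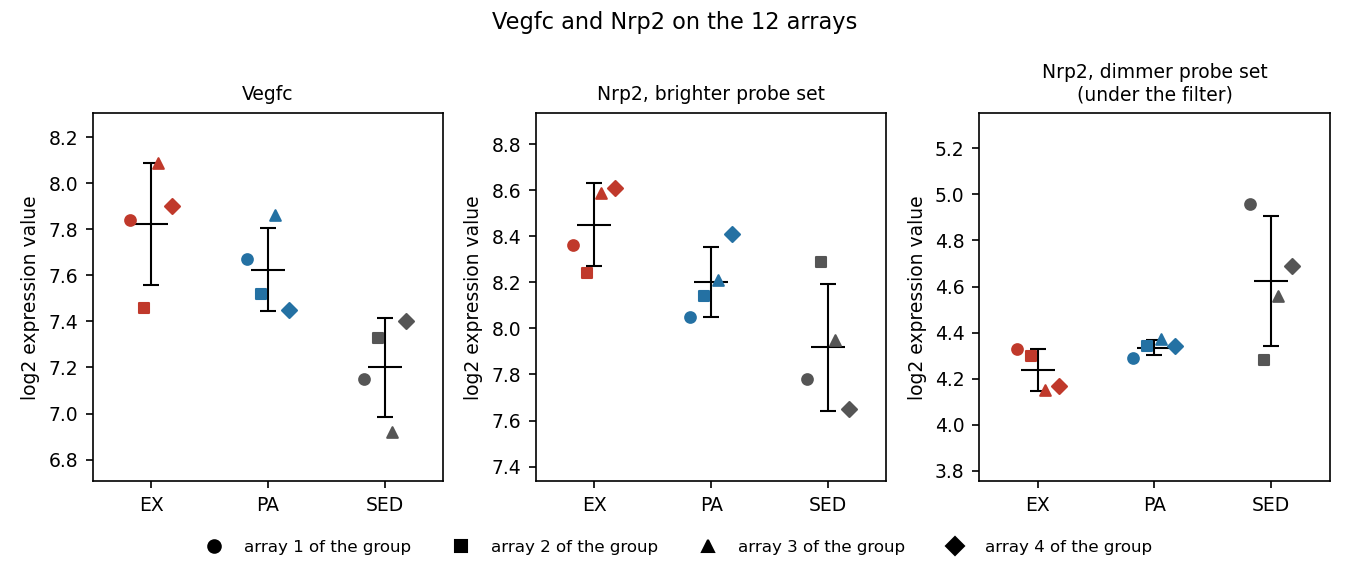
Log2 expression values of Vegfc and of the 2 Nrp2 probe sets (vertical axis) on each array of EX, PA and SED; points are arrays, with a marker shape for each array of a group, and bars give the mean ± SD. Vegfc is above all SED arrays in EX and PA, the brighter Nrp2 probe set descends from EX to SED with overlap, and the dimmer one is higher in 3 of 4 SED arrays.

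The promoters of these 2 genes are shown because Vegfc and the brighter Nrp2 probe set were the values that chose the family, and the same motifs were searched in each. They are the RefSeq windows of GRCr8 from 250 bases before to 50 after the annotated start, read 5' to 3' along the gene, with matches in capitals. Vegfc is chr16:44560838-44561137 on the minus strand and Nrp2 is chr9:71617004-71617303 on the plus strand.
Vegfc: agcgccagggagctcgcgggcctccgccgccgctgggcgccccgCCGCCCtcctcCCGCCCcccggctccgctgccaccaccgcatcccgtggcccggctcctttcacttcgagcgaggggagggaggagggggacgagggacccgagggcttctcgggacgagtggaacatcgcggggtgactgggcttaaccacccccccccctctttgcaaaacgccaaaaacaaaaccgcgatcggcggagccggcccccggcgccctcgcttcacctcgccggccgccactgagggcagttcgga
Nrp2: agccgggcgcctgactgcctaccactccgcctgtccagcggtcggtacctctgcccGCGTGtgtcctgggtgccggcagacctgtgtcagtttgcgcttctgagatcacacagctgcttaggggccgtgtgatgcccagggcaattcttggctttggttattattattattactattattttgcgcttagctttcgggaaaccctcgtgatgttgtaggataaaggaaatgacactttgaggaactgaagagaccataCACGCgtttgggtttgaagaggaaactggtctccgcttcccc

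Both strands were searched for 4 motifs. ACGTG is the usual core of the hypoxia response element, while GCGTG is its other form. GGGCGG is known as the GC box, whereas TATAAA is the TATA box. Matches of different motifs were counted separately even where they overlapped. The Vegfc window held 2 GC boxes, both on the opposite strand (CCGCCC), at -206 and -195 from the start, and no other match. The Nrp2 window held GCGTG at -194 and, on the opposite strand, at 9 after the start, and no GC box. Among the 8 member genes, 6 had a GC box and 5 had GCGTG in a window, 1 (Flt1) had TATAAA and 0 had ACGTG. Of all 33469 windows of this length, 33.1% held GGGCGG, 29.7% held GCGTG, 14.2% held TATAAA and 19.3% held ACGTG. These shares are by window, while the 8 genes were counted over 9 windows. The member windows held 53.0% to 75.0% G and C, where the median of all windows was 51.7%, so the counts and shares are not directly comparable. These matches describe the letters only.

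The remaining ligands differed little between groups. Vegfa, the capillary growth factor, had log2 values of 11.00, 10.96, 11.03 and 11.05 in EX, 10.99, 10.99, 11.07 and 11.10 in PA, and 10.95, 11.10, 11.12 and 11.22 in SED. The 3 groups overlapped throughout. PA differed from SED by -0.06, with a 95% interval of -0.24 to 0.12 (limma adjusted p = 0.740), and EX from PA by -0.03, with an interval of -0.21 to 0.15 (limma adjusted p = 1). EX differed from SED by -0.09 ± 0.08 (SE). The dimmer Vegfa probe set gave 0.03 for PA against SED and -0.08 for EX against PA. Without SED 1, PA minus SED was -0.11 for the brighter probe set and 0.003 for the dimmer one, and EX minus SED was -0.14 for the brighter one.

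Vegfb, the Flt1 ligand linked to coronary vessels, ranged from 10.83 to 11.17 in EX, from 10.85 to 11.41 in PA and from 10.94 to 11.27 in SED. PA and SED had means of 11.14 and 11.15, a difference of -0.01 with a 95% interval of -0.29 to 0.28 (limma adjusted p = 0.986), and of 0.03 without SED 1. EX differed from PA by -0.14 (95% interval -0.42 to 0.15, limma adjusted p = 1). Of the other 2 VEGF ligands, which are no members, placental growth factor Pgf had means of 5.54 in EX, 5.81 in PA and 5.81 in SED. Its EX minus PA difference was -0.27 (95% interval -0.73 to 0.18), and PA minus SED was 0.09 without SED 1. Vegfd, the closest relative of Vegfc, read 3.29 to 3.77 on all arrays and lay under the filter.

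Among the receptors, Kdr, the main signalling receptor of Vegfa, had log2 values of 11.63, 11.57, 11.74 and 11.67 in EX, 11.72, 11.69, 11.69 and 11.87 in PA, and 11.62, 11.65, 11.70 and 11.75 in SED. These arrays overlapped in all groups. PA differed from SED by 0.06 (95% interval -0.11 to 0.24, limma adjusted p = 0.725) and EX from PA by -0.09 (-0.27 to 0.09, limma adjusted p = 1). Its other probe set read 3.23 to 4.09, under the filter.

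Flt1, a receptor that binds Vegfa tightly and also exists as a soluble trap, had 3 tested probe sets. The brightest read 7.30, 7.33, 6.97 and 7.61 in EX, 7.76, 7.62, 7.52 and 7.70 in PA, and 7.16, 7.72, 7.54 and 7.21 in SED. PA was the highest and the tightest group, while EX ran from 6.97 to 7.61 and SED from 7.16 to 7.72. EX minus PA was -0.35 ± 0.15 (SE), with a 95% interval of -0.68 to -0.01 and an limma adjusted p of 1. The other 2 probe sets gave -0.05 and -0.09 for EX against PA, so the size was not shared. PA against SED gave 0.24, 0.16 and 0.11 over the 3 probe sets, with limma adjusted p of 0.459 to 0.745. In the second probe set SED 1 read 5.39 and the other SED arrays 6.00 to 6.49, and its EX minus SED difference went from 0.11 to -0.12 without SED 1. PA minus SED without SED 1 was 0.16, -0.07 and 0.15 over the 3 probe sets, so they did not share a sign.

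Flt4, the receptor of Vegfc on lymphatic endothelium, had log2 values of 5.26, 5.29, 4.95 and 5.24 in EX, 5.11, 5.23, 5.25 and 5.20 in PA, and 5.75, 5.41, 5.19 and 5.41 in SED. SED had the highest mean (5.44 ± 0.23, SD, n = 4), and its lowest array lay among the EX and PA arrays. EX differed from SED by -0.26 ± 0.12 (SE). PA differed from SED by -0.24 ± 0.12 (SE, 95% interval -0.51 to 0.02, limma adjusted p = 0.364). Without SED 1, the highest array, the differences were -0.15 for EX and -0.14 for PA. EX and PA differed by -0.01 (95% interval -0.28 to 0.25, limma adjusted p = 1). In both activity groups the Flt4 mean was under that of SED and the Vegfc mean above it. Flt4 was dim, with a mean of 5.27 over all arrays, not far above the filter. Probe sets under the filter tended to be lower than in SED, with median differences of -0.135 for EX and -0.15 for PA. The tested probe sets had medians of 0.055 and 0.0625. Whether the Flt4 differences follow this tendency of dim probe sets was not tested.

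Nrp1, the co-receptor of Vegfa, was nearly level in its brighter probe set, with 11.90, 11.91, 11.91 and 11.92 in EX, 11.84, 11.89, 11.95 and 12.04 in PA, and 11.94, 11.92, 11.81 and 11.95 in SED. PA differed from SED by 0.03 (95% interval -0.14 to 0.19, limma adjusted p = 0.899) and EX from PA by -0.02 (-0.19 to 0.15, limma adjusted p = 1). Its dimmer probe set spread more, with SED 1 at 6.45 and the other SED arrays at 7.04 to 7.47, against 7.21 to 7.59 in EX and 7.23 to 7.50 in PA. That probe set gave 0.35 ± 0.19 (SE) for EX against SED, 0.15 without SED 1, and 0.04 without SED 1 and SED 3 together. PA against SED was 0.32 (95% interval -0.08 to 0.73, limma adjusted p = 0.422), and 0.12 without SED 1.

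**Figure D2:**
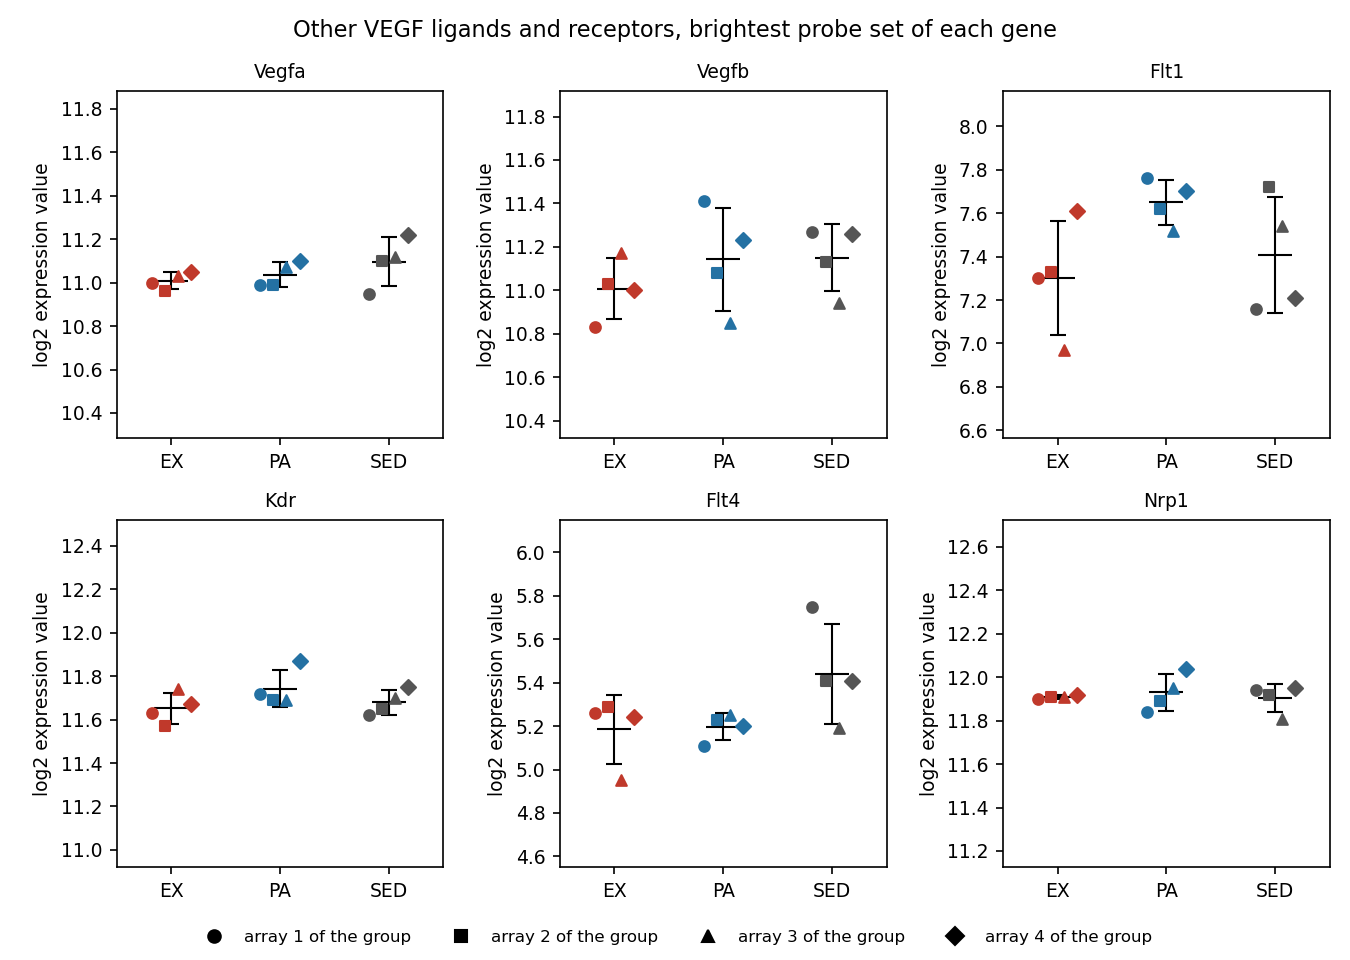
Log2 expression values (vertical axis) of the brightest probe set of Vegfa, Vegfb, Flt1, Kdr, Flt4 and Nrp1 on each array of EX, PA and SED; points are arrays and bars give the mean ± SD. Groups overlap in all 6 genes, Flt1 is highest in PA, and Flt4 has its highest array in SED at 5.75.

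Of the 14 member probe sets 12 were above the filter, at least 1 for each gene, and the other 2 (1 each of Kdr and Nrp2) are given by their values. In PA against SED, limma called 0 of these 12, where 0% of all 18626 tested probe sets were called. An unadjusted limma p under 0.05 was reached by 1 of 12 member probe sets, that of Vegfc, beside 2840 of all 18626 tested probe sets. By gene, that share was 12.5% of all 10244 tested genes. The SED arrays used here also served to choose Vegfc. Groups that did not overlap were found for 1 of 12 with PA higher, again Vegfc, beside 4.88% of all tested probe sets, and for 0 of 12 with PA lower, beside 3.51%. In EX against PA, limma again called 0 of 12 and 0% overall. The unadjusted count was 1 of 12, the brightest Flt1 probe set, beside 534 of all 18626 tested probe sets and 2.53% of all tested genes. Groups without overlap were found for 0 of 12, beside 1.33% with EX higher and 1.45% with EX lower. In EX against SED, which served to choose the members, 1 of 12 had no overlap, with EX higher, beside 4.39% of all tested probe sets, and 0 of 12 with EX lower, beside 3.51%, with 0% of all probe sets called.

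By gene, taking the brightest probe set, PA had the higher mean for 5 of the 8 members and SED for 3, with a median difference of 0.04, while 59.9% of all 10244 tested genes were higher in PA, with a median of 0.05. In EX against PA, 2 of 8 (Vegfc and Nrp2) were higher and 6 lower, with a median of -0.02. Over all genes 44.3% were higher in EX than in PA, and the median was also -0.02. In EX against SED, 3 of 8 were higher (Vegfc, Nrp2 and, by 0.005, Nrp1) and 5 lower, with a median of -0.06, against 57.0% higher and a median of 0.03 over all genes. Without SED 1, PA had the higher mean for 6 of 8 and SED for 2, with a median of 0.04, and the median over all tested probe sets was also 0.04. The 8 genes did not share a direction, and the place of Vegfc and Nrp2 among them was set by the choice in EX against SED and rests partly on the same arrays in the other comparisons.

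**Figure D3:**
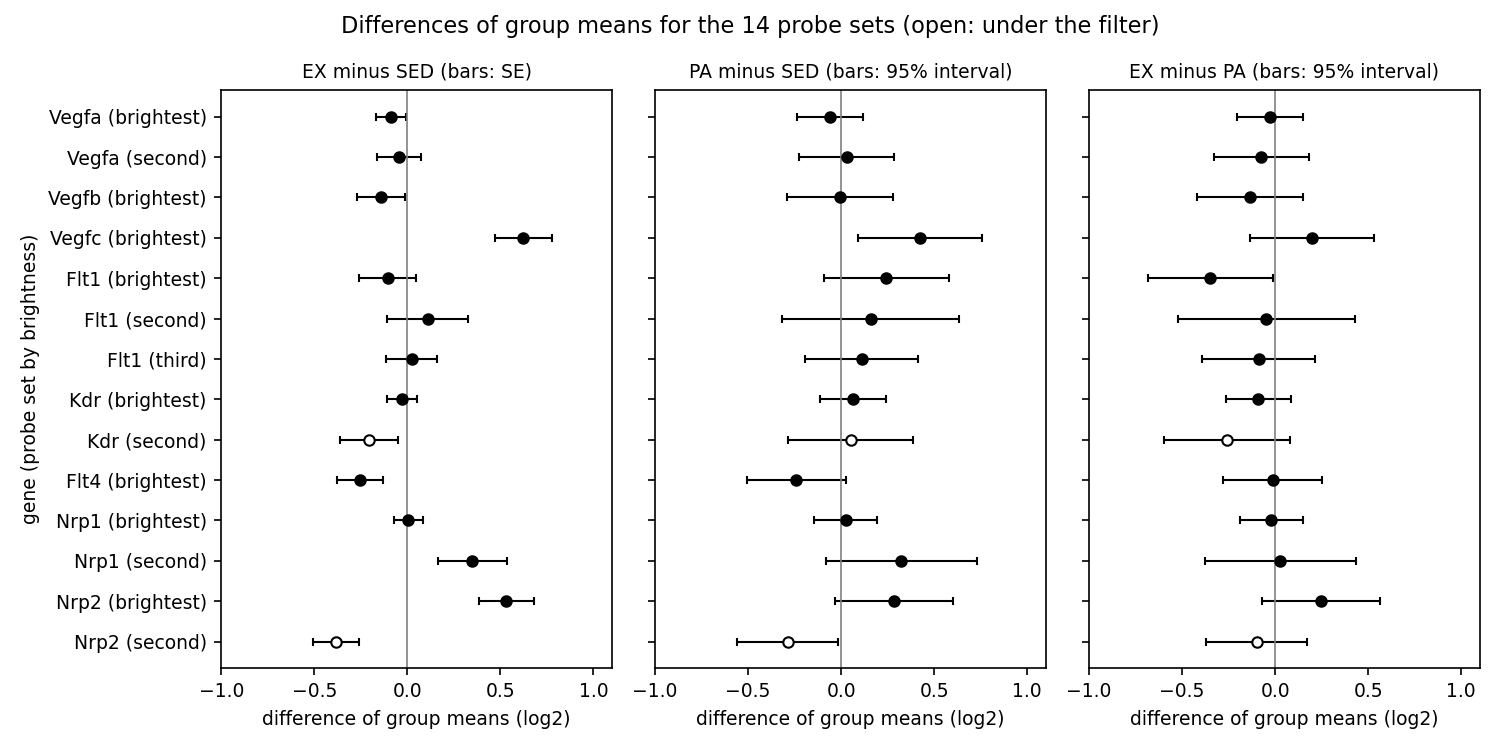
Differences of group means on the log2 scale (horizontal axis) for the 14 member probe sets (rows) in 3 comparisons; bars are the standard error for EX minus SED, which served to choose the members, and 95% intervals for the other 2, and open points are under the filter. In PA minus SED the Vegfc interval of 0.09 to 0.76 lies above 0, and in EX minus PA the brightest Flt1 probe set lies between -0.68 and -0.01; 0 of the 12 tested probe sets passed the adjusted limma test in either comparison.

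The size of the Vegfc and Nrp2 differences varied when single arrays were left out. Their sign was largely set by the choice of these genes and is no measure of stability. For Vegfc, EX minus SED went from 0.53 (without SED 3) to 0.74 (without EX 2), and PA minus SED from 0.33 (without SED 3) to 0.49 (without SED 4). For the brighter Nrp2 probe set, EX minus SED went from 0.44 (without SED 4) to 0.66 (without SED 2) and PA minus SED from 0.20 (without SED 4) to 0.41 (without SED 2). The EX minus PA difference ranged from 0.11 to 0.32 for Vegfc and from 0.19 to 0.32 for Nrp2.

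**Figure D4:**
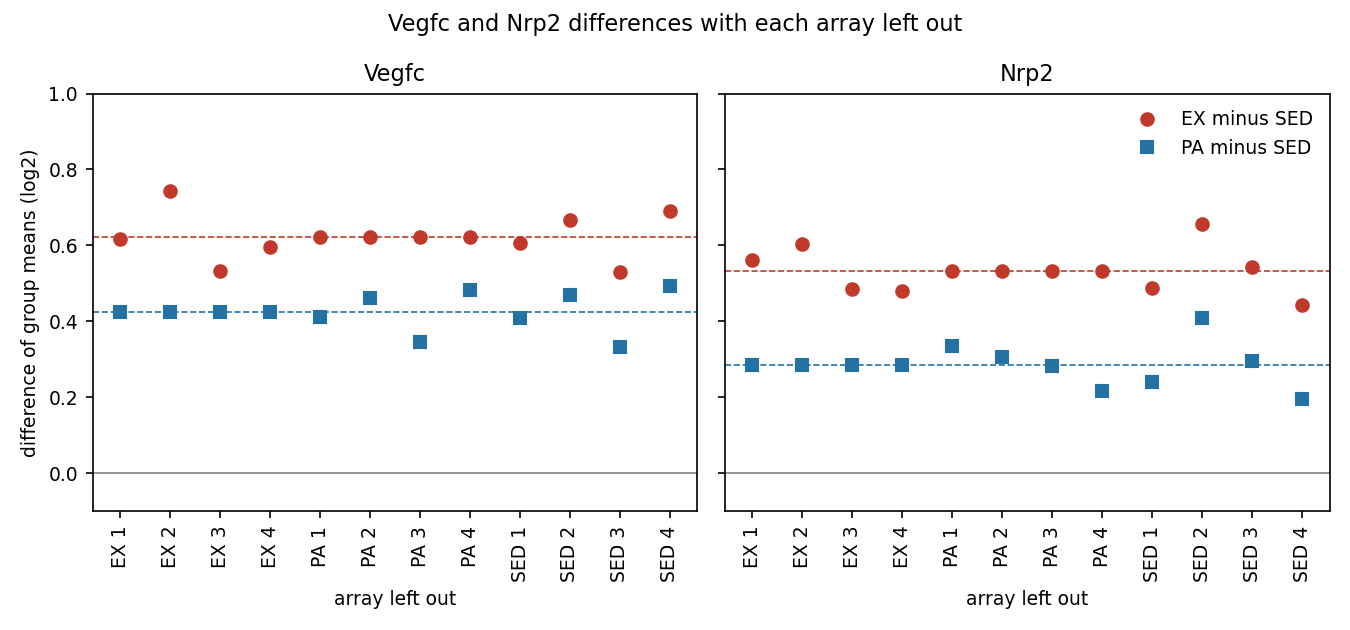
Differences of group means on the log2 scale (vertical axis) for Vegfc and the brighter Nrp2 probe set, with the array on the horizontal axis left out; circles are EX minus SED, squares PA minus SED and dashed lines the values with all 12 arrays. The lowest point is 0.20, for Nrp2 in PA minus SED without SED 4, and the highest is 0.74, for Vegfc in EX minus SED without EX 2.

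Endothelial markers differed in both directions around a mean that varied little. The mean of the 13 measured markers, relative to its mean over all arrays, ranged from -0.08 to 0.11 in EX, from -0.07 to 0.05 in PA and from -0.09 to 0.09 in SED. Relative to that mean, Vegfc was higher by 0.62 in EX and by 0.42 in PA than in SED, the brighter Nrp2 probe set by 0.53 and 0.28, and Flt4 differed by -0.26 and -0.25. Of the 13 markers, 6 were higher and 7 lower in PA than in SED (median -0.06), and 0 passed; without SED 1 they were 8 and 5 (median 0.02). In EX against SED, the junction protein Esam differed by 0.44 (95% interval 0.10 to 0.78, limma adjusted p = 0.213) and the TGF-beta co-receptor Eng by -0.31 (-0.57 to -0.05, limma adjusted p = 0.245), both named after their values were seen. The list mean therefore does not stand for each marker. Pecam1, an adhesion molecule of endothelial cells, differed by -0.06 in PA against SED (95% interval -0.24 to 0.13), and by -0.03 without SED 1. Cdh5 was not analysed here. The 14 leukocyte markers were highest in SED 3, at 0.70 above their mean, the array in which Vegfc was lowest (6.92). The markers were lowest in SED 1, at -0.35, where Vegfc read 7.15 and was also under every EX and PA array. These markers ranged from -0.35 to 0.70 in SED, from -0.08 to 0.25 in PA and from -0.19 to -0.03 in EX. In EX against SED, 2 were higher and 12 lower (median -0.19), and in PA against SED 7 were higher and 7 lower (median -0.001). Without SED 1, 0 were higher and 14 lower in EX (median -0.35), and 4 were higher and 10 lower in PA (median -0.23). With or without SED 1, 0 passed. The part of leukocyte markers in the Vegfc values was not tested.

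Genes whose values followed Vegfc most closely over the 12 arrays were Htatsf1 (Pearson r = 0.94), Aplnr (0.91), Pdxdc1 (0.90), Wasl (0.90) and Tipin (0.90), out of 10243 genes. Aplnr is the receptor of apelin and is found on endothelial cells, and Wasl promotes actin branching. Without SED 1 these correlations were 0.88 to 0.93. The closest to the brighter Nrp2 probe set were Ulk2 (0.89), Stard4 (0.87), Cilk1 (0.87), Steap2 (0.85) and Zfyve16 (0.84), and 0.81 to 0.87 without SED 1. Nrp2 itself ranked at 171 among the genes most like Vegfc, with r = 0.68 (0.62 without SED 1). Over all 12 arrays Flt4 had the lowest r of the members to both, at -0.55 to Vegfc and -0.59 to Nrp2. Without SED 1 Flt4 had -0.45 and -0.44. Vegfa then had -0.42 to Vegfc and -0.50 to Nrp2, the lowest of the members to Nrp2. The arrays share their groups and their scaling, and a gene high in EX and low in SED will correlate with the 2 genes chosen for that pattern, so these values describe likeness only.

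The genes around the pathway were counted by lists, each gene by its brightest tested probe set, and 0 passed the limma test in any comparison. As a background for the counts without SED 1, the median PA minus SED difference over all tested probe sets was 0.04 without that array. Oxygen sensing sets the transcription of Vegfa. Of 8 tested genes there, 7 were higher in PA than in SED and 1 lower (median 0.04), and 2 were higher and 6 lower in EX than in PA (median -0.03). The hypoxia-inducible subunit Hif1a differed by 0.20 in PA against SED (95% interval -0.08 to 0.48) and by -0.18 in EX against PA (-0.46 to 0.10). For Epas1, its relative of endothelial cells, the values were 0.04 and -0.05, and for Vhl, which marks both for destruction, 0.04 and 0.04. Ppargc1a, a coactivator that can raise Vegfa, differed by 0.22 and -0.10, and the oxygen sensor Egln1 by 0.03 and 0.13. The list mean in SED 1 was -0.17 relative to its mean over all arrays, against -0.02 to 0.05 in the other SED arrays. Without SED 1, 5 of 8 were higher and 3 lower in PA than in SED, and the differences were 0.10 for Hif1a, 0.06 for Epas1, -0.01 for Vhl, 0.09 for Ppargc1a and 0.09 for Egln1.

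Proteins that cut Vegfc and markers of lymphatic vessels made up a list with 10 tested genes, of which 5 were higher and 5 lower in PA than in SED (median 0.02) and likewise in EX against PA (median 0). Pcsk5, a convertase that cleaves the Vegfc precursor, read 5.66 to 5.71 in PA and 5.84 to 6.34 in SED without overlap, a difference of -0.41 ± 0.13 (SE, limma adjusted p = 0.214), and -0.09 in EX against PA. Sox18, an early lymphatic transcription factor, differed by 0.46 ± 0.15 (SE, limma adjusted p = 0.213) in PA against SED and by -0.19 in EX against PA. Prox1, the regulator of lymphatic identity that cardiomyocytes also express, differed by -0.01 and 0.01, Lyve1, a hyaluronan receptor of lymphatic endothelium and macrophages, by -0.02 and 0.07, and the chemokine Ccl21 by -0.26 and 0.25. Without SED 1, 7 were higher and 3 lower in PA than in SED (median 0.07), and Prox1 differed by 0.01, Lyve1 by 0.09 and Ccl21 by -0.06. Ccbe1, the cofactor of Vegfc cleavage, lay under the filter with means of 4.68 in EX, 4.40 in PA and 4.82 in SED, and the protease Adamts3 was not analysed here.

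Semaphorins and plexins share the neuropilins with the VEGF ligands. Of 10 tested genes, 2 were higher and 8 lower in PA than in SED (median -0.08), and 7 were higher and 3 lower in EX than in PA (median 0.08). Plxna3, a receptor chain for semaphorins, differed by -0.52 ± 0.17 (SE, limma adjusted p = 0.215) in PA against SED and 0.21 in EX against PA. Sema3f, the Nrp2 ligand, differed by -0.04 and 0.08, Plxna1 by -0.12 and -0.02, Plxnd1 by -0.20 and 0.09, and Gipc1, an adaptor of Nrp1, by -0.04 and 0.16. Without SED 1, 3 were higher and 7 lower in PA than in SED (median -0.09), and Sema3f differed by -0.15, Plxna1 by -0.05 and Gipc1 by -0.005. Sema3a, the Nrp1 ligand, read 4.42 to 5.37 and lay under the filter.

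Receptor signalling had 34 tested genes, of which 19 were higher, 14 lower and 1 equal in PA against SED (median 0.01), and 15 were higher and 19 lower in EX against PA (median -0.01). Without SED 1, 26 were higher and 8 lower in PA than in SED (median 0.04), and the median over all tested probe sets was also 0.04. Nfatc2, a calcineurin-dependent transcription factor, read 7.64 to 8.18 in PA and 7.35 to 7.63 in SED, a difference of 0.44 ± 0.13 (SE, limma adjusted p = 0.204). Ptpn1, a phosphatase that acts on Kdr, read 5.99 to 6.39 in PA and 6.45 to 6.52 in SED, a difference of -0.26 ± 0.10 (SE, limma adjusted p = 0.277). The groups of both genes did not overlap. In EX against PA they differed by -0.06 and -0.11, the kinase Prkcb by 0.37 (95% interval -0.20 to 0.93) and the small heat shock protein Hspb1 by -0.23 (-0.52 to 0.07). Nos3, the endothelial nitric oxide synthase, read 3.99 to 5.03 and lay under the filter.

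Angiopoietin and Notch genes had 13 tested members, 6 higher and 7 lower in PA than in SED (median -0.07) and 9 higher and 4 lower in EX than in PA (median 0.04). Angpt1, which stabilises vessels through its receptor Tek, had the widest difference from SED of the genes in the lists, with values of 8.01, 8.15, 7.74 and 8.35 in EX, 8.33, 8.13, 7.25 and 8.27 in PA, and 6.16, 8.05, 6.52 and 7.40 in SED. SED ran from 6.16 to 8.05 and overlapped both other groups. PA was above SED by 0.96 ± 0.37 (SE, limma adjusted p = 0.266). Its antagonist Angpt2 differed by -0.25 in PA against SED and 0.26 in EX against PA, the receptors Tek by -0.16 and 0.04 and Tie1 by -0.09 and -0.03, and the Notch ligands Dll4 by -0.13 and -0.06 and Jag2 by -0.38 (limma adjusted p = 0.246) and 0.24. SED 1 read 8.52 for Tie1 and 11.57 for Tek, above every other array of SED. Without it, PA minus SED was 0.20 for Tie1, 0.0025 for Tek and 0.67 for Angpt1, and 7 genes of the list were higher and 6 lower (median 0.0025).

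Genes known to respond to VEGF, Flt1 left out, were 6 higher and 6 lower of 12 tested in PA against SED (median 0.04) and 9 higher and 3 lower in EX against PA (median 0.07). The protease Adamts1 differed by -0.32 and 0.04 and the Notch regulator Nrarp by -0.02 and 0.18. Without SED 1, 4 were higher and 8 lower in PA than in SED (median -0.10), Adamts1 differed by -0.14 and Nrarp by -0.07. Heparan sulfate and matrix genes, which hold VEGF outside the cell, were 5 higher and 7 lower of 12 (median -0.04) and 6 higher and 6 lower in EX against PA (median -0.0025). Hpse, the enzyme that cleaves heparan sulfate, was above SED in PA by 0.62 ± 0.20 (SE, limma adjusted p = 0.219) and below PA in EX, with a difference of -0.34, and Sdc2, a syndecan, differed by 0.18 and -0.15. Without SED 1 that list had 6 higher and 6 lower in PA against SED (median -0.03). Against all tested genes, with medians of 0.05 in PA against SED and -0.02 in EX against PA, the medians of these 2 lists over all 12 arrays were -0.04 to 0.04 and -0.0025 to 0.07.

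**Figure D5:**
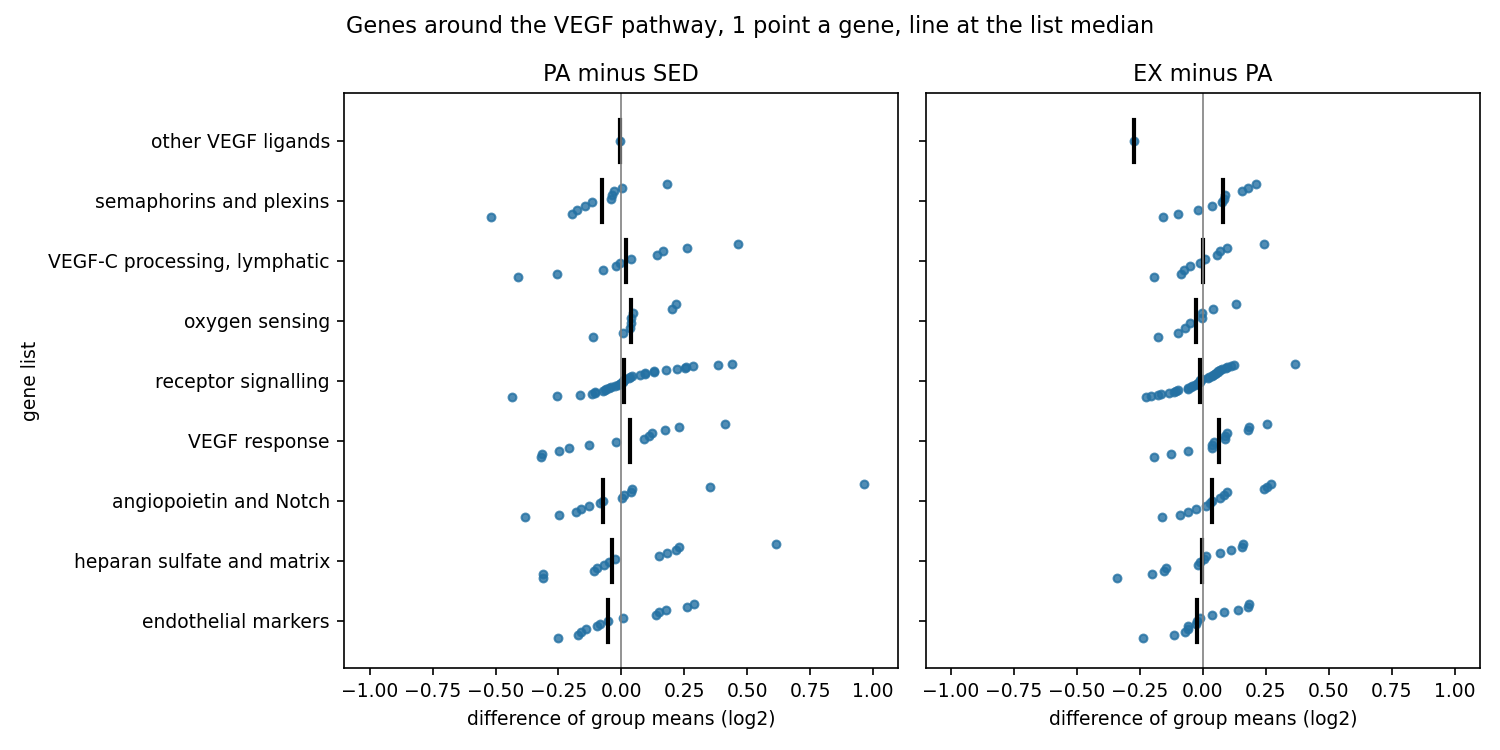
Differences of group means on the log2 scale (horizontal axis) for the tested genes of each list (rows) in PA minus SED and EX minus PA; each point is a gene and the line is the list's median. The medians lie near 0 for lists of more than 1 gene, and Angpt1 at 0.96 in PA minus SED is the farthest point.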

How the data were processed

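The authors deposited 1 table of log2 values for 12 Affymetrix arrays, made from 6 µg of total RNA each, per the labels' protocols. MAS5 and RMA are named in the submitters' processing notes without a role, so the exact scale and background correction are not given in the sources used here. Values were used as deposited. The 57 control probe sets were left out, and 20826 of the other 31042 had 1 gene symbol. The 18626 probe sets with a mean of at least 4.94 over all arrays (the upper 60%) entered the tests. Each gene was represented by its brightest tested probe set. The model was fitted in limma 3.58.1 (R 4.3.3) with 3 group means over all 12 arrays, two-sided moderated tests, Benjamini-Hochberg adjustment over all tested probe sets and calls at 0.05. That fit also gave the standard errors and 95% intervals, and for probe sets under the filter from the same fit without it. The steps were run on simulated data with independent arrays and planted changes larger than any member difference. That run does not bear on differences as small as those of the members, or on arrays that share animals. Arrays carry no read depth, and their number limits the precision.

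The members and lists were chosen with earlier results of these data known. Beside the 8 members, the text names 20 genes fixed whatever their values, up to 2 genes with the smallest p in PA against SED and in EX against PA from each of 8 pathway lists, and the 5 genes most like Vegfc and Nrp2. Promoters came from RefSeq (GRCr8). Alternatives were quantile normalization, median centring, other filters, an offset of 32, a trend and robust variance model, array weights, fits to the pair of compared groups, a replicate block, calls at 0.1, averaged probe sets, and leaving out arrays. Figures used matplotlib 3.10.9 in Python 3.11.15.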

Additional observations from a re-analysis of the deposited data

Results flagged for a closer look

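Single arrays lay far from the rest of their group in 5 of the 42 groups of 4 examined over the 14 probe sets, and chance alone marks about 1 in 20 groups. Kdr in its brighter probe set read 11.87 on PA 4 and 11.69 to 11.72 on the other PA arrays. In its dimmer probe set, under the filter, Kdr read 4.09 on PA 2 and 3.41 to 3.52 elsewhere in PA. Flt4 read 4.95 on EX 3 and 5.24 to 5.29 on the other EX arrays. The dimmest Flt1 probe set read 5.81 on PA 3 against 5.37 to 5.43, and 5.11 on SED 2 against 5.45 to 5.52. None of the Vegfc or Nrp2 groups stood out in this way.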

How the results depend on the processing

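The count of 0 called member probe sets in PA against SED and in EX against PA was the same under all 24 alternatives. Over all probe sets, EX against SED had 8 calls with array weights, 4 at a threshold of 0.1, 2 with probe sets of a gene averaged, 2 without SED 1 and SED 3 together, and 0 to 2 when single arrays were left out (2 without SED 1 and 1 without EX 2). With array weights PA against SED and EX against PA had 1 call each. Differences close to 0 changed sign: Vegfb in PA against SED (-0.01) became 0.044 with array weights and ran from -0.097 to 0.09 when single arrays were left out, Nrp1 in PA against SED (0.03) became -0.00052 after quantile normalization and -0.005 without SED 1 and SED 3 together and ran from -0.012 to 0.055 over single arrays, Nrp1 in EX against PA (-0.02) became 0.0059 after quantile normalization and 0.0038 with averaged probe sets and ran from -0.05 to 0.017, and Flt4 in EX against PA (-0.01) ran from -0.048 to 0.066. The Vegfc difference in PA against SED ranged from 0.26 to 0.49 with a limma adjusted p of 0.206 to 0.595. That of the brighter Nrp2 probe set ranged from 0.17 to 0.41 with a limma adjusted p of 0.197 to 0.675. The dimmer Nrp2 probe set in EX against SED went from -0.39 to -0.16 with the offset, which by construction shrinks differences of dim probe sets. Differences of the pathway genes without SED 1, an alternative chosen after seeing the data, stand beside their values above. Replicate numbers did not pair the arrays: deviations from the group means correlated between -0.208 and 0.134 for equal numbers. Each array was checked against the 4 arrays of each other group, and in 7 of 24 checks it correlated best with its own number. With the replicate block, 0 probe sets were called in each comparison. Precision is limited by 4 arrays a group.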

Other observations

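Markers of other cell types are given as list means on the log2 scale relative to the mean over all 12 arrays. Pericyte and smooth muscle markers (9 of 11 tested) ranged from -0.10 to 0.09 in EX, -0.06 to 0.01 in PA and -0.08 to 0.09 in SED. Fibroblast markers (10 of 10) ranged from -0.08 to 0.12 in EX, -0.09 to 0.19 in PA and -0.30 to 0.11 in SED, lowest in SED 1. Cardiomyocyte markers (11 of 12) stayed between -0.03 and 0.05 on all arrays. Blood-cell markers (6 of 8) ran from -0.91 in SED 1 to 1.04 in SED 3. Their list mean does not stand for each gene. The standard errors of group differences were widest for S100a8 (0.93) and S100a9 (0.56), and ran from 0.13 (Hbb) to 0.35 (Slc4a1) for the rest. For adipocyte, epicardial and nerve markers only 2 of 6, 2 of 6 and 2 of 7 genes were tested, with means of -0.25 to 0.43, -0.15 to 0.50 and -0.30 to 0.49 over all arrays.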
